A study of Mus musculus with 8 samples.

Results

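The carbonic anhydrase family is described here by 10 of its genes, Car1, Car2, Car3, Car4, Car5a, Car5b, Car8, Car12, Car14 and Car15, taken by symbol from the 52195 genes of the deposited expression table. The table holds bulk RNA sequencing of 4 unperturbed mouse organs, kidney, liver, lung and small intestine, with 2 libraries each. The animals were male C57BL/6J mice (strain C57BL/6 in the labels), an inbred laboratory strain, between 6 and 10 weeks old, and they carried no transgene and received no agent. The 4 organs were taken from each mouse, rinsed in buffered saline and ground whole, so every library mixes all cell types of an organ with the blood left in it. The replicates of an organ came from separate mice, but the sources do not tie a replicate number to a mouse. Values are FPKM, fragments counted on a gene divided by the length of its transcript and by the size of the library, so that levels of different genes can be set side by side within a library.

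Carbonic anhydrases are zinc enzymes that turn carbon dioxide and water into bicarbonate and a proton, and back. Mammals hold a set of isoforms that differ in speed and in place: some lie in the cytosol, some in the mitochondrial matrix, and some at the cell surface with the active site facing outward. They serve the reabsorption of bicarbonate and the secretion of acid in kidney tubules, the release of carbon dioxide in lung capillaries, ion and fluid transport across epithelia, and the supply of bicarbonate to carboxylating enzymes of the liver mitochondrion. A few members, such as Car8, have lost the residues that hold the zinc and do not catalyse the reaction.

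The organ labels were checked against 3 markers per organ, and each was higher in both libraries of its own organ than in all 6 other libraries. The depth ran from 9164187 to 21444675 reads on genes, and 3 reads of a tested member amounted to an FPKM between 0.0184 and 0.262. A value under this floor was taken as not detectable, and the floor covers counting error only. A gene was tested if it reached an FPKM of 1 in at least 2 libraries, which held for 16328 genes and for 9 of the 10 members. Each organ was set against the mean of the other 3 on the log2(FPKM + 1) scale with limma, and a gene was called where the Benjamini-Hochberg adjusted p was under 0.05 and the log2 difference over 1 in either direction. This scale understates differences of genes with a low FPKM. The deposited scaling shifts genes as a whole. Over the genes tested, the log2 difference had a median of -0.34 in kidney, -0.72 in liver, 0.82 in lung and -0.01 in small intestine. With median-of-ratios scaling these medians became -0.10, -0.10, -0.09 and -0.05. As these are bulk samples, fewer cells of a type and less RNA per cell cannot be told apart.

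As deposited, kidney held the highest mean level of Car2, Car5b, Car12 and Car14, liver that of Car1, Car3 and Car5a, and lung that of Car4 and Car8, while small intestine held the highest level of no tested member. After median-of-ratios scaling Car4 was highest in kidney and Car8 in liver, and the organ was unchanged for the other 7. Car1 passed the filter through its 2 liver libraries alone and Car12 through its 2 kidney libraries alone, so these genes had to differ between organs, and their differences from that organ are given as a description. Ordering the 4 organs by mean FPKM gave 3 neighbouring pairs per member and 27 in all, of which 18 differed at an adjusted p under 0.05 (limma) and 9 did not, which does not show that those levels were equal. Without Car1 and Car12, 15 of 21 pairs differed. From the highest organ to the next this held for 6 of the remaining 7 members, where 57.4% of all genes tested passed, for the middle step for 4 of 7 against 35.1%, and for the last for 5 of 7 against 23.5%. These shares keep the genes that passed the filter through 1 organ. With Car1 and Car12 kept as well, the steps passed for 8, 5 and 5 of the 9 members. Car8 was the member whose first step did not pass (adjusted p = 0.137 between lung and liver, limma).

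**Figure D1:**
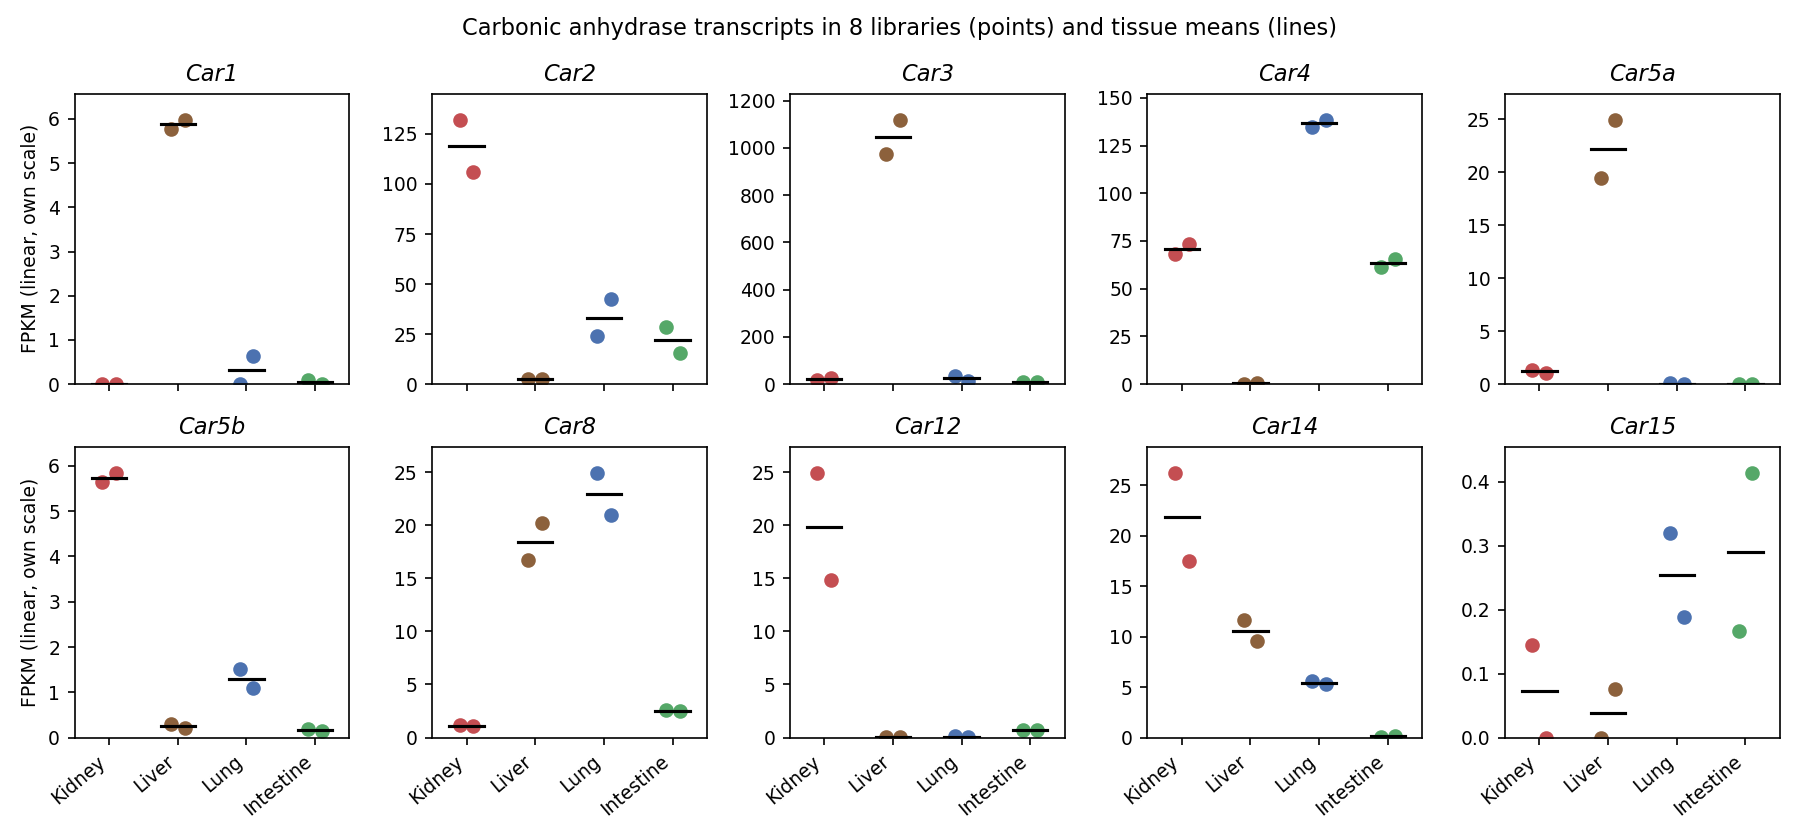
FPKM (linear axis, own scale for each gene) of the 10 carbonic anhydrase genes in the kidney, liver, lung and small intestine libraries; points are libraries and lines are means of 2. Car3 reached 1047 in liver on average, Car4 was at least 61.2 in every kidney, lung and small intestine library, and Car15 was at most 0.413 in all 8.

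Among the cytosolic isoforms, Car2 encodes the fast enzyme found in many epithelia and in red blood cells. The gene lies on the plus strand of chromosome 3 (GRCm38, chr3:14886273-14900770). The FPKM of Car2 was 132 and 106 in kidney, 24.2 and 42.3 in lung, 28.7 and 15.5 in small intestine, and 2.39 and 2.48 in liver. Both kidney libraries were above all others and both liver libraries below all others, while the lung and small intestine libraries overlapped. The mean in kidney was 119 ± 18.2 (SD, n = 2), which was 3.58 times that in lung (7.75 times after median-of-ratios scaling), with a log2 difference between the 2 organs of 1.85 ± 0.33 (SE, adjusted p = 0.00164, limma). Between lung and small intestine the log2 difference of Car2 was 0.58 (adjusted p = 0.164, limma), and it turned to -0.18 after median-of-ratios scaling, while without small intestine replicate 1 it was 1.01 and passed the test. Small intestine in turn was at 9.08 times the liver level, and at 4.93 times with that scaling. Against the mean of the other organs, Car2 had a log2 difference of 3.14 in kidney (adjusted p = 6.57e-05, limma) and of -3.69 in liver (adjusted p = 2.13e-05, limma).

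Car3 encodes a slow cytosolic isoform known from skeletal muscle, fat cells and the liver of male rodents, and its gene starts upstream of Car2 on the same strand (chr3:14863512-14872523). The FPKM of Car3 was 975 and 1119 in liver, against 33.7 and 15.0 in lung, 17.9 and 24.9 in kidney, and 7.72 and 8.66 in small intestine. Liver stood 43.0 times above lung, the next organ (134 times after median-of-ratios scaling), with a log2 difference between them of 5.47 ± 0.34 (SE, adjusted p = 4.84e-06, limma). The lung and kidney libraries overlapped, and their log2 difference of 0.09 (adjusted p = 0.830, limma) changed sign to -0.96 after median-of-ratios scaling, to -0.14 without kidney replicate 1 and to -0.47 without lung replicate 1. Kidney was at 2.61 times the small intestine level (adjusted p = 0.0175, limma), and this call ended without kidney replicate 2, small intestine replicate 1 or small intestine replicate 2, at log2 differences of 1.04, 1.20 and 1.34. Car3 in lung was also the member with the widest gap between replicates, at 1.12 on the log2 scale, where the median over all genes tested was 0.15. Lower Car3 in lung than in the mean of the other organs was called at a log2 difference of -1.34 (adjusted p = 0.00274, limma), and not without lung replicate 2, where the difference was -0.78.

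Fat and muscle are the tissues beside the organs that Car3 is known from. The 6 adipocyte markers summed to an FPKM of 131 and 77.3 in lung and of 54.0 and 70.4 in small intestine, against at most 3.03 in kidney and liver. In lung the largest part came from Cfd, at 103 and 59.0, beside Cidec at 14.5 and 10.4, Adipoq at 8.90 and 5.19 and Retn at 3.63 and 2.40. In small intestine it came from Cidec, at 32.2 and 50.01, and Cfd, at 16.5 and 16.6, while Adipoq was at 4.18 and 2.43, Plin1 at 0.138 and 0.114 and Lep at 0.127 and 0.0790. The 6 skeletal muscle markers summed to 43.6 in lung replicate 1 and 7.12 in lung replicate 2, the same order as Car3 in these libraries, and Acta1, the skeletal actin gene, was at 26.7 and 0.262. In small intestine the muscle sum was 10.9 and 11.3. In the liver libraries, where Car3 was highest, the muscle sum was 0.656 and 0.489, with Myh1 and Myh4 at 0, and the adipocyte sum was 3.03 and 0.750, with Lep and Plin1 at 0. The part of these markers in the lung values of Car3 was not tested.

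Car1, the third cytosolic member, encodes an isoform abundant in red blood cells and colon, and it lies on the minus strand of the same stretch of chromosome 3 (chr3:14766216-14808368). Its FPKM was 5.77 and 5.98 in liver, 0 and 0.645 in lung, 0.0856 and 0 in small intestine, and 0 in both kidney libraries. In reads, the liver values rest on 66 and 77, lung replicate 2 on 10, small intestine replicate 1 on 1, and the other libraries on none. Liver was therefore at least 42.3 times above kidney, taking 3 reads per library as the kidney floor, and its log2 difference from lung was 2.42 ± 0.22 (SE). Between the remaining organs no pair of neighbours in the order passed the test. The log2 difference of Car1 between lung and small intestine was 0.30 (adjusted p = 0.262, limma). It was -0.06 without lung replicate 2, and without lung replicate 1 it was 0.66 and passed. Car1 in kidney did not pass the test against lung (adjusted p = 0.174) or small intestine (adjusted p = 0.859, limma), and its difference of -1.07 from the mean of the other organs is carried by liver and given as a description. Without lung replicate 2 it was -0.95 and no longer called. Of the 31-base words in the Car1 transcripts, 20.1% are shared with Gm5843, which was listed at 0 in all 8 libraries.

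Red blood cell transcripts differed between the organs too. The 7 erythroid markers, mostly globin genes, summed to an FPKM of 19196 and 24893 in lung, 867 and 2409 in kidney, 327 and 99.9 in small intestine, and 726 and 781 in liver. Slc4a1, the red cell and kidney anion exchanger, was at an FPKM of 0.147 and 1.69 in lung. Lung replicate 2 thus held the higher value, as it did of Car1 (0.645 against 0) and Car2 (42.3 against 24.2). In liver, Slc4a1 was at 0.0223 and 0, while Alas2, the erythroid enzyme of haem synthesis, was at 35.5 and 31.6, the highest of all 8 libraries. In small intestine, the 8 pancreatic acinar markers summed to 2622 in replicate 1 and 1209 in replicate 2, against at most 5.93 in the other organs. Car2 (28.7 and 15.5) and the erythroid sum (327 and 99.9) were also higher in replicate 1 there. In kidney the erythroid sum was 867 and 2409, and Car2 as deposited went the other way, at 132 and 106. The order of the kidney replicates was not compared after median-of-ratios scaling. The part of red cells in the lung and small intestine values of Car1 and Car2, and of pancreas in the small intestine values of Car2, was not tested.

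The mitochondrial isoforms form a pair of paralogs that supply bicarbonate inside the organelle, where carbamoyl phosphate synthetase and pyruvate carboxylase use it. Car5a lies on the minus strand of chromosome 8 (chr8:121916126-121944904) and Car5b on the minus strand of chromosome X (chrX:163976822-164027997). The FPKM of Car5a was 19.5 and 25.0 in liver, 1.32 and 1.08 in kidney, 0.0765 and 0 in lung, and 0 in both small intestine libraries. Car5b had the opposite preference between the first 2 of these organs, at 5.64 and 5.84 in kidney and 0.292 and 0.213 in liver, with 1.52 and 1.09 in lung and 0.185 and 0.139 in small intestine. No kidney library overlapped a liver library for either gene. Liver was at 18.5 times the kidney level of Car5a, a log2 difference of 3.39 ± 0.18 (SE, adjusted p = 4.46e-06, limma), and at least 92.8 times above small intestine with 3 reads per library as the floor. Kidney was at 4.41 times the lung level of Car5b (9.65 times after median-of-ratios scaling), a log2 difference of 1.56 ± 0.15 (SE, adjusted p = 6.12e-05, limma).

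Below the top organ, the paralogs also differed in order. Car5a in kidney was above lung by 1.08 on the log2 scale (adjusted p = 0.00105, limma), with 38 and 25 reads in kidney against 1 and 0 in lung, and the difference between lung and small intestine was not detectable at this depth. Car5b in lung was at 5.15 times the liver level (adjusted p = 0.00106, limma), but after median-of-ratios scaling it was at 1.62 times, and its log2 difference of 0.87 became 0.25 and no longer passed. The liver and small intestine levels of Car5b, resting on 10 to 17 reads, did not differ by the test (adjusted p = 0.577, limma). Against the mean of the other organs, Car5b was called lower in liver at -1.06, and not after median-of-ratios scaling, where the difference was -0.79. The exons of Car5a overlap those of BC048644 on the opposite strand over 314 bases, and BC048644 was at most 0.778 in FPKM in any library. Of the 31-base words of Car5a, 26.7% occur in transcripts of other genes (BC048644, Dcaf8 and Kif18a), and of those of Car5b 8.36%.

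The promoters of this pair are shown because the levels of these paralogs are highest in different organs. They come from RefSeq (GRCm38.p6), which had an entry for 6 of the 10 members, Car4, Car5a, Car5b, Car12, Car14 and Car15, and each runs from 250 bases before the annotated start to 50 after it on the gene's strand. No entry was matched for Car1, Car2, Car3 and Car8. Capitals mark the CpG dinucleotides. Car5a lies at chr8:121944863-121945162 and Car5b at chrX:164027961-164028260, both on the minus strand.
Car5a: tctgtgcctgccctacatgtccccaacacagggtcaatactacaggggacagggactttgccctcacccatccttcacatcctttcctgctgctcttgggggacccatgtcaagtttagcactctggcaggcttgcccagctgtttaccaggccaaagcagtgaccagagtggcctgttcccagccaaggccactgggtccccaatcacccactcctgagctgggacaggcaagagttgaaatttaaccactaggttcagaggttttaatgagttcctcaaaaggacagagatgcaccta
Car5b: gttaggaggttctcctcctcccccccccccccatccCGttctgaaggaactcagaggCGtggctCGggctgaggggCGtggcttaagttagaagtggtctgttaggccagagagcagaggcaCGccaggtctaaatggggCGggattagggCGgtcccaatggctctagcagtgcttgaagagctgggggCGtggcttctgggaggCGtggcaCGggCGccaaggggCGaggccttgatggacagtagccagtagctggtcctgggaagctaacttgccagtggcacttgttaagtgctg
The Car5a window holds 0 CpG dinucleotides, which is true of 5.43% of the 32851 promoters of the table. The Car5b window holds 12, and 39.6% of promoters have at least as many; the median is 7. GC content was 53.7% for Car5a and 61.7% for Car5b, both above the median of 52.7%. Searched on both strands, the letters CCAAT were found in Car5a and Car5b, as in 37.4% of all promoters, and GGGCGG in Car5b only, as in 35.7%, while TATAAA, held by 13.6% of promoters, was found in neither. None of these motifs holds another, and a match is a description of the window and not a binding site.

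Among the membrane-bound isoforms, Car4 is held to the outer cell surface by a lipid anchor and is known from lung capillaries and the kidney brush border. It lies on the plus strand of chromosome 11 (chr11:84957786-84966044). The FPKM of Car4 was 135 and 138 in lung, 68.4 and 73.5 in kidney, 61.2 and 65.4 in small intestine, and 0.278 and 0.493 in liver. The gene was thus abundant in all organs but liver, where only 5 and 10 reads were counted, and small intestine stood 164 times above liver, or 91.5 times after median-of-ratios scaling (log2 difference 5.54 ± 0.14, SE, adjusted p = 1.50e-07, limma). Kidney and small intestine did not differ by the test (log2 difference 0.16, adjusted p = 0.387, limma). Lung was at 1.93 times the kidney level, a log2 difference of 0.94 ± 0.14 (SE, adjusted p = 0.000621, limma), and after median-of-ratios scaling the difference turned to -0.16 and did not pass. Against the mean of the other organs, Car4 was the only member called higher in 3 organs, at log2 differences of 2.89 in lung, 1.64 in kidney and 1.43 in small intestine, and these 3 calls remained after that scaling, at 1.89, 2.10 and 1.46. The 4 markers of lung capillary endothelium summed to an FPKM of 266 and 317 in lung and to at most 16.4 in the other organs, and none of them was at 0 in any library. Their part in the lung level of Car4 was not tested.

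Car12 and Car14 encode transmembrane isoforms with an outward active site, and Car12 is known from the basolateral membrane of kidney tubules and other epithelia. Car12 lies on the plus strand of chromosome 9 (chr9:66713686-66766845). Its FPKM was 24.9 and 14.9 in kidney, 0.759 and 0.732 in small intestine, 0.121 and 0.0741 in lung, and 0.0144 and 0.0765 in liver. Kidney was at 26.6 times the small intestine level, a log2 difference of 3.54 ± 0.23 (SE), and its difference from the mean of the other organs was 4.01. Small intestine was at 7.63 times the lung level (13.1 times after median-of-ratios scaling), with 54 and 63 reads against 9 and 7, and the log2 difference of 0.67 passed narrowly (adjusted p = 0.0376, limma). That call ended with no filter on low values and without either library of liver, lung or small intestine, at log2 differences between 0.64 and 0.70. Lung and liver were at or near the floor for Car12 and did not differ by the test, and their log2 difference of 0.07 turned to -0.027 after median-of-ratios scaling.

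Car14 lies on the minus strand of chromosome 3 (chr3:95897768-95904691), 81.0 Mb from Car2. Its FPKM was 26.2 and 17.5 in kidney, 11.7 and 9.52 in liver, 5.56 and 5.35 in lung, and 0.0420 and 0.174 in small intestine. No 2 organs overlapped, and each step of the order passed the test. Kidney was at 2.06 times the liver level (log2 difference 0.96 ± 0.22, SE, adjusted p = 0.0111, limma) and liver at 1.94 times the lung level, where median-of-ratios scaling gave 1.37 and 6.18 times (log2 difference 0.84 ± 0.22, SE, adjusted p = 0.00853, limma), and lung stood above small intestine by 2.54 (SE 0.22, adjusted p = 3.83e-05, limma). The first of these calls ended with a pseudocount of 0.1 (1.02), after median-of-ratios scaling (0.45) and without liver replicate 2 (0.82), and the second without liver replicate 1 (0.71). Higher Car14 in liver than in the mean of the other organs was called at 1.09, and not without kidney replicate 2 (1.0) or liver replicate 1 (0.95). Car14 in lung had a difference of -0.03 that was not called, but with median-of-ratios scaling Car14 was called lower there, at -1.05. The exons of Car14 overlap those of Aph1a on the opposite strand over 445 bases. The use of strand in the counting is not given in the sources used here. In small intestine Aph1a was at 14.2 and 15.1 and Car14 at 0.0420 and 0.174, and the part of Aph1a reads in the Car14 values was not tested.

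The promoters of Car12 and Car14 are shown next, since both genes are transmembrane isoforms with their highest level in kidney. Car12 lies at chr9:66713436-66713735 on the plus strand and Car14 at chr3:95904636-95904935 on the minus strand (GRCm38.p6), with CpG dinucleotides in capitals.
Car12: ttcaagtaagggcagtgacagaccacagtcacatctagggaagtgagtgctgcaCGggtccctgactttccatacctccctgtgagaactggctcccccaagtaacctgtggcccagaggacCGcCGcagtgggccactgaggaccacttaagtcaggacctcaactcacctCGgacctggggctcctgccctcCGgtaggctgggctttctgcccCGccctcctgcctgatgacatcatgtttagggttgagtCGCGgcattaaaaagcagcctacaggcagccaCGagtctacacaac
Car14: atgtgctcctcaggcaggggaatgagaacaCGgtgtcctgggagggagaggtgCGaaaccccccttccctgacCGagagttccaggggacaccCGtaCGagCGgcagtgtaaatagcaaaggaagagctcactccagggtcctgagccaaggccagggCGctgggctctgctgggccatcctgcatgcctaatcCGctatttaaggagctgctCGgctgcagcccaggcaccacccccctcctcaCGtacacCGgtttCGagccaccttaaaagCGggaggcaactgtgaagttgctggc
The windows hold 9 and 13 CpG dinucleotides, both above the median of 7. GGGCGG was found in Car12 and not in Car14, and neither CCAAT nor TATAAA was found in either. Of the remaining members with an entry, Car4 holds 15 CpG dinucleotides and is the only one of the 6 windows with TATAAA, and Car15 holds 4 and the letters CCAAT.

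Markers of the tubule segments in which these isoforms are known to act differed between the kidney libraries. Slc12a3, the transporter of the distal convoluted tubule, had an FPKM of 84.0 in the first replicate and 17.7 in the other, while Pvalb, the other marker listed for that segment, had 7.57 and 8.1. Slc12a1, of the thick ascending limb, was at 139.5 and 55.5. The 3 proximal tubule markers summed to 1169 and 758, the 3 intercalated cell markers to 52.2 and 35.5. Of the 2 principal cell markers, both water channels, Aqp2 was lower in the first replicate than in the other, at 80.1 and 119.9, and Aqp3 was higher, at 45.7 and 33.4. As deposited, Car12 (24.9 and 14.9), Car14 (26.2 and 17.5) and Car2 (132 and 106) were likewise higher in replicate 1. So were Car5a (1.32 and 1.08) and Car8 (1.15 and 1.05), while Car3, Car4 and Car5b were higher in replicate 2. The median-of-ratios factor was larger for replicate 1, so that scaling lowers every gene of replicate 1 relative to replicate 2. With it the summed FPKM of the members turned from 278 and 245 to 269 and 341. Single members and markers were not compared between the kidney replicates after that scaling. The part of the segments in the differences between the kidney replicates was not tested. Between the kidney replicates, the median absolute log2 difference was 0.16 over the 9 members and 0.30 over all genes tested.

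The last membrane-bound member, Car15, is also lipid-anchored and lies on the minus strand of chromosome 16 (chr16:17835276-17838364). Its FPKM was 0.167 and 0.413 in small intestine, 0.319 and 0.188 in lung, 0.145 and 0 in kidney, and 0 and 0.0755 in liver. No library reached an FPKM of 1 and the gene was not tested, so no order of organs is given. The values correspond to between 0 and 6 reads by their own steps, which imply another exon length than the annotation used here. The value is uncertain in any case, as 61.3% of the 31-base words of Car15 are shared with Gm20518, an overlapping gene on the same strand.

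Car8 encodes a carbonic anhydrase-related protein without catalytic activity, known from cerebellar Purkinje cells, where it binds a receptor for inositol trisphosphate. It lies on the minus strand of chromosome 4 (chr4:8143362-8239041). The FPKM of Car8 was 24.9 and 21 in lung, 16.7 and 20.2 in liver, 1.15 and 1.05 in kidney, and 2.55 and 2.5 in small intestine. Lung and liver formed the high pair of organs, small intestine and kidney the low one, with no overlap between the pairs. Liver was at 7.31 times the small intestine level, or 13.3 times after median-of-ratios scaling (log2 difference 2.46 ± 0.17, SE, adjusted p = 1.29e-05, limma), and small intestine at 2.30 times the kidney level (adjusted p = 0.00853, limma). Lung and liver did not differ by the test, at 0.30, and after median-of-ratios scaling the order turned, with lung lower than liver by a called difference of -1.27. Car8 was called higher than the mean of the other organs in both, by 2.19 in lung and 1.79 in liver, and with that scaling by 1.09 and 2.79.

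Set against the mean of the other organs, the members split in every organ. In kidney 5 of the 9 members tested were called higher (Car2, Car4, Car5b, Car12 and Car14), where 8.65% of all genes tested were, and 3 lower (Car1, Car3 and Car8), where 16.1% were. In liver 5 were higher (Car1, Car3, Car5a, Car8 and Car14; 6.56% of all genes) and 4 lower (Car2, Car4, Car5b and Car12; 32.7%), so that every tested member was called in 1 direction or the other; without liver replicate 1 only 3 were higher, as Car1 no longer passed the filter and Car14 lost its call. In lung 2 were higher (Car4 and Car8; 40.7%) and 3 lower (Car3, Car5a and Car12; 8.26%). In small intestine 1 was higher (Car4; 13.7%) and 5 lower (Car3, Car5a, Car5b, Car8 and Car14; 11.3%). The median log2 difference of the 9 members was 1.64 in kidney, 1.09 in liver, -0.03 in lung and -1.21 in small intestine. Car1 and Car12, which passed the filter through 1 organ each, are part of these counts, as such genes are part of the shares. Without them, 4 of 7 members were higher and 2 lower in kidney, 4 and 3 in liver, 2 and 2 in lung, and 1 and 5 in small intestine. Since the 4 comparisons share libraries, a member that is far above in 1 organ is pulled below in the others. A member far below in 1 organ, as Car4 in liver, is likewise raised in the others. With median-of-ratios scaling, Car5b in liver was no longer called, and Car1 in small intestine (-1.17) and Car14 in lung (-1.05) were called lower in addition. Over all genes, that scaling left 15534 tested. It gave 1911 higher and 1971 lower in kidney against 1413 and 2625 with the values as deposited. The counts were 2345 and 2618 in lung against 6652 and 1349, and 2073 and 2275 in liver against 1071 and 5334. In small intestine they were 2123 and 1896 against 2244 and 1843.

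**Figure D2:**
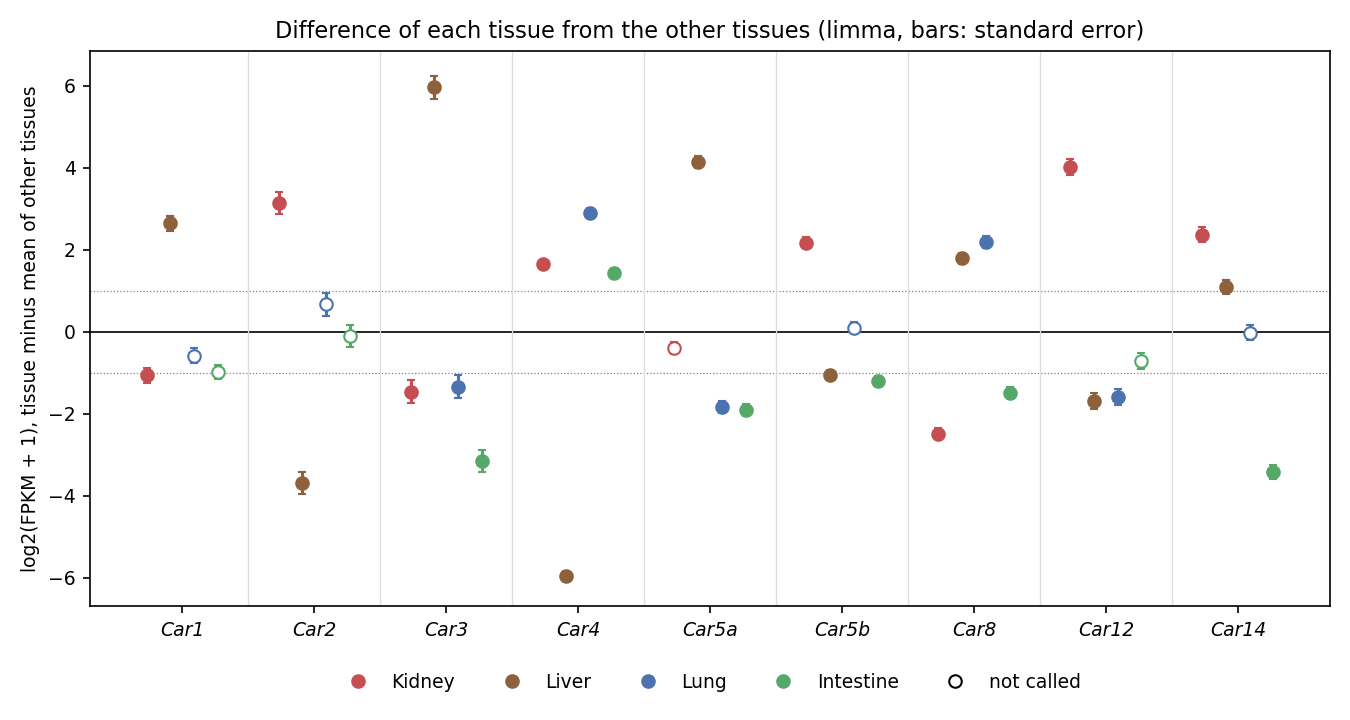
Log2(FPKM + 1) difference of each organ from the mean of the other 3 for the 9 tested members, with standard errors from limma; filled points are called and open points are not, and dotted lines mark a difference of 1. Liver holds the extreme values on both sides, 5.96 for Car3 and -5.96 for Car4.

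Between fixed pairs of organs, the share of all genes at an adjusted p under 0.05 (limma) was 38.3% for kidney and liver, 46.8% for kidney and small intestine, 56.8% for liver and small intestine, 63.5% for lung and small intestine, 72.6% for kidney and lung, and 80.9% for liver and lung. The tests of members between 2 organs are to be read against these shares.

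Summed over the 10 members, the carbonic anhydrase transcripts amounted to an FPKM of 1107 ± 107 in liver, 261 ± 23.1 in kidney, 225 ± 0.806 in lung and 97.5 ± 5.57 in small intestine (SD, n = 2 each). Divided by the median-of-ratios factors, these sums were 1877, 305, 121 and 90.6. Car3 alone made up 94.6% ± 0.0502 of the liver sum, and without Car3 liver had the lowest sum, at 60.3, against 240 in kidney, 200.3 in lung and 89.3 in small intestine. That order depends on the scaling: with the median-of-ratios factors the sums without Car3 were 279 in kidney, 102 in liver, 108 in lung and 82.9 in small intestine, which was then the lowest. In kidney the sum was spread over several genes, with Car2 at 45.5% ± 2.95, Car4 at 27.3% ± 3.79, and Car3, Car14 and Car12 at 8.31%, 8.29% and 7.52%, in an order that differed between the libraries. Car4 led in lung, at 60.8% ± 1.34, with Car2 at 14.8% ± 5.76, Car3 at 10.8% ± 5.85 and Car8 at 10.2% ± 1.19. The order of these 3 differed between the lung libraries: Car3 was at 15.0% and 6.68%, Car2 at 10.7% and 18.9%, and Car8 at 11.0% and 9.37%. It also led in small intestine, at 65.2% ± 6.82, followed by Car2 at 22.4% ± 8.33.

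**Figure D3:**
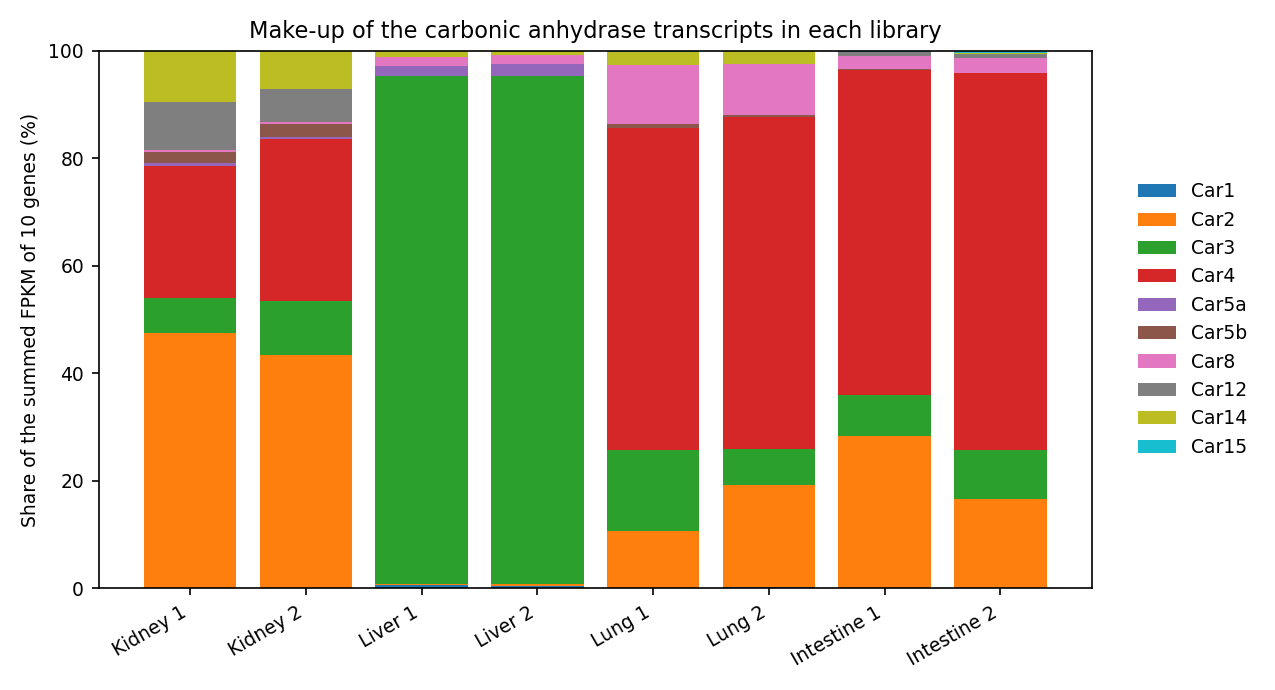
Share of each member in the summed FPKM of the 10 carbonic anhydrase genes (percent, stacked bars, 1 bar per library). Car3 fills 94.5% and 94.6% of the liver bars, Car2 is the largest part of the kidney bars, and Car4 is the largest part of the lung and small intestine bars.

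By compartment, the cytosolic genes Car1, Car2 and Car3 held 95.3% of the sum in liver, 53.8% in kidney, 30.9% in small intestine and 25.8% in lung. The membrane-bound genes Car4, Car12, Car14 and Car15 held 66.3% in small intestine, 63.4% in lung, 43.1% in kidney and 1.01% in liver, most of the latter from Car14. The mitochondrial genes Car5a and Car5b held 2.67% in kidney, 2.02% in liver, 0.596% in lung and 0.165% in small intestine. In summed FPKM these genes were at 6.96 and 6.92 in kidney and at 19.8 and 25.2 in liver, where Car3 made up most of the family's sum. By gene, Car5b was 2.21% and Car5a 0.459% of the sum in kidney, and Car5a was 2.0% and Car5b 0.0232% in liver. Car8, which does not catalyse the reaction, held between 0.421% of the sum in kidney and 10.2% in lung. These shares are of transcripts and not of enzyme activity, which differs between isoforms.

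Of the members on chromosome 3, Car1, Car3 and Car2 lie side by side with Car13, another cytosolic isoform, in a stretch of 259.0 kb that holds no other protein-coding gene. Their start sites lie at 0 kb (Car13), 166.6 kb (Car1), 221.8 kb (Car3) and 244.5 kb (Car2), and 13.7 kb separate the end of Car3 from the start of Car2. The highest organ was the same, liver, for the neighbours Car1 and Car3, and differed between Car13 and Car1 and between Car3 and Car2. Car3 averaged an FPKM of 1047 in liver, where Car2 averaged 2.43, and Car2 averaged 119 in kidney, where Car3 averaged 21.4. The mean FPKM of Car1 in liver was 5.87. Car13 was highest in small intestine, with 8.74 and 15.1, against at most 1.38 in any other library.

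**Figure D4:**
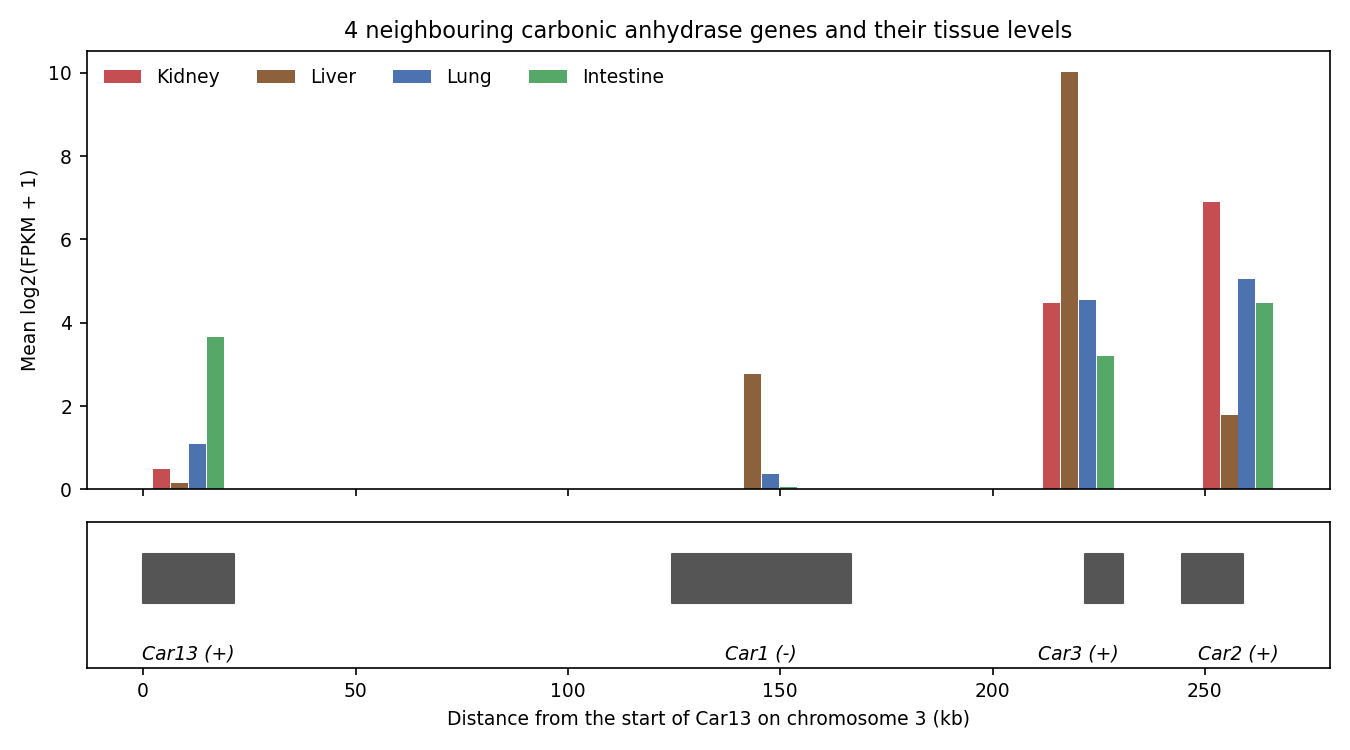
Mean log2(FPKM + 1) in each organ (bars, from 0) of the 4 carbonic anhydrase genes that neighbour each other on chromosome 3, placed over their gene spans (lower panel, distance in kb, strand in brackets). Car13 is highest in small intestine, Car1 and Car3 in liver, and Car2 in kidney.

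For each tested member, the genes with the most similar pattern were found by the root mean square difference of log2(FPKM + 1) over the 8 libraries, after subtracting each gene's mean. Nearest to Car5a was Etnppl, which encodes an enzyme that breaks down phosphoethanolamine (0.14), followed by Igfals and Gm11789. For Car3 they were the plasma protein genes Mbl1 (0.36), Itih2 and Itih1, and for Car1 Dnase2b (0.18), Nlrp12 and Raet1d. For Car2 they were Acss1, the mitochondrial acetyl-CoA synthetase (0.37), Sfrp1 and Cd63-ps, and for Car12 the transporter genes Slc6a20b (0.22) and Slc18a1 and the gene 1700011H14Rik. Car5b had Gm17546 (0.18), Syne4 and Slc35f3, Car14 had Gabarapl1 (0.17) and Csad, and Car8 had Zcchc24 (0.20) and Bst2. Car4 had the least close neighbours, Cd24a (0.67), Dpep1 and Tspan1. Between members, Car1 and Car5a were the most alike by this measure (0.87), followed by Car3 and Car5a (0.99) and by Car5b and Car12 (1.01), and Car3 and Car4 the least (5.19). The Pearson correlation over the 8 libraries ranked them otherwise, with Car3 and Car5a highest (0.97) and Car4 and Car5a lowest (-0.97). The 8 points of each comparison are 2 libraries of 4 organs, so both measures rest on 4 organ levels.

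Of the 6 other carbonic anhydrases listed, Car9 and Car13 passed the filter, and both had their highest level in small intestine, the organ where no tested member was highest. Car9, a transmembrane isoform known to be induced by low oxygen, was at an FPKM of 27.4 and 24.1 there, and at 3.18 and 3.16 in kidney, 0.845 and 0.873 in lung and 0.284 and 0.0420 in liver, with a log2 difference from the other organs of 3.68 (adjusted p = 1.04e-06, limma). Its exons overlap those of Gm12454 on the opposite strand over 214 bases, and the FPKM of Gm12454 was 8.69 and 8.0 in small intestine, 7.48 and 3.57 in lung, 2.03 and 2.46 in kidney, and 0 and 0.0895 in liver. Car13 had a difference of 3.07, which is a description, since it reached an FPKM of 1 in both small intestine libraries and in only 1 other, lung replicate 1. With these 6 genes in the sum, the share of Car4 in small intestine was 46.7% in place of 65.2%. Car6, Car7, Car10 and Car11 were not tested. The highest FPKM was 0.118 for Car6, 0.782 for Car7, 0.0161 for Car10 and 1.49 for Car11.

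Genes that work with carbonic anhydrases were read from 3 lists, whose counts stand beside the shares of all genes tested: called higher were 8.65% in kidney, 6.56% in liver, 40.7% in lung and 13.7% in small intestine, and called lower 16.1%, 32.7%, 8.26% and 11.3%. These shares keep genes that passed the filter through 1 organ. With median-of-ratios scaling 15534 genes were tested. Of these, 1911 were higher and 1971 lower in kidney, and 2073 and 2275 in liver. In lung 2345 were higher and 2618 lower, and in small intestine 2123 and 1896. List counts after that scaling are to be read beside these numbers. Of 15 bicarbonate and chloride transporters, 13 were tested. In kidney 4 of them were higher (Slc4a1, Slc4a4, Slc4a9 and Slc26a4) and 3 lower, in liver 0 were higher and 7 lower, in lung 3 were higher (Slc4a3, Slc4a5 and Slc26a9) and 4 lower, and in small intestine 5 were higher (Slc4a5, Slc4a7, Slc26a3, Slc26a6 and Cftr) and 3 lower. Median-of-ratios scaling left 12 tested, with 4 higher and 3 lower in kidney, 0 and 6 in liver, 2 and 4 in lung, and 5 and 2 in small intestine, and Slc4a3 was not among the genes higher in lung. The filter was passed through 1 organ by Slc4a9 (kidney), Slc26a3 (small intestine), Slc4a8 and Slc26a9 (both lung). Without these 4, the counts of the 9 remaining transporters were 3 higher and 2 lower in kidney, 0 and 5 in liver, 2 and 2 in lung, and 4 and 2 in small intestine. Of the 9, 3 reached an FPKM of 1 in both libraries of 1 organ and in only 1 other library. Slc4a1 did so in kidney and lung replicate 2, and Slc4a3 in lung and kidney replicate 1. Slc4a7 did so in small intestine and lung replicate 2. The higher calls of these 3 genes in those organs are a description. Slc4a4, the sodium-bicarbonate cotransporter of the proximal tubule, was at an FPKM of 69.7 and 39.7 in kidney and at most 9.10 elsewhere. Slc26a6, an anion exchanger of the intestinal brush border, was at 71.6 and 57.9 in small intestine and at most 1.26 elsewhere. Slc26a3, the chloride-bicarbonate exchanger of the gut, was at 25.5 and 26.8 in small intestine, and Slc26a4, pendrin of the intercalated cells, at 20.7 and 11.4 in kidney.

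Of 8 proton transporters, 7 were tested, and 4 were higher in kidney with 0 lower, 0 higher and 5 lower in liver, 2 higher and 4 lower in lung, and 3 higher and 2 lower in small intestine. Median-of-ratios scaling left 6 tested, and 0 were higher in lung, 4 were lower in liver and 2 were higher in small intestine, with the other counts as before. Of the 7, Atp6v1b1, Atp6v0a4 and Atp4a reached an FPKM of 1 in kidney alone and Slc9a4 in lung alone, so their differences there followed from the filter. Without these 4, the counts of the 3 remaining genes were 1 higher and 0 lower in kidney, 0 and 3 in liver, 1 and 2 in lung, and 3 and 0 in small intestine. Slc9a3, the sodium-proton exchanger of the apical membrane, was at an FPKM of 17.4 and 7.83 in kidney and 23.8 and 22.6 in small intestine, and at most 0.0352 in liver and lung. Its relative Slc9a2 was at 11.3 and 13.0 in small intestine and 4.0 and 2.47 in kidney. The proton pump subunits of the intercalated cell, Atp6v0a4 and Atp6v1b1, were at 34.0 and 13.6 and at 17.0 and 6.90 in kidney, with a wide gap between the replicates, and at most 0.818 in every other library.

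All 9 bicarbonate-using carboxylases were tested. In kidney 5 were higher and 1 lower, in liver 2 higher (Cps1 and Pcx) and 0 lower, in lung 0 higher and 4 lower, and in small intestine 1 higher (Cps1) and 3 lower. With median-of-ratios scaling 7 were higher in liver, 6 lower in lung and 5 lower in small intestine, and the kidney counts were as before. Cps1, the carbamoyl phosphate synthetase of the urea cycle, was at an FPKM of 501 and 485 in liver, where Car5a was highest, and at 85.0 and 75.7 in small intestine, where Car5a was at 0 and Car5b at most 0.185. Pcx, pyruvate carboxylase, was at 96.5 and 63.0 in kidney and 60.8 and 57.5 in liver, the organs with the highest Car5b and Car5a, and at most 9.65 elsewhere. Pccb, a subunit of propionyl-CoA carboxylase, was at 87.0 and 71.4 in kidney, and Mccc2, of methylcrotonyl-CoA carboxylase, at 28.5 and 28.6.

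**Figure D5:**
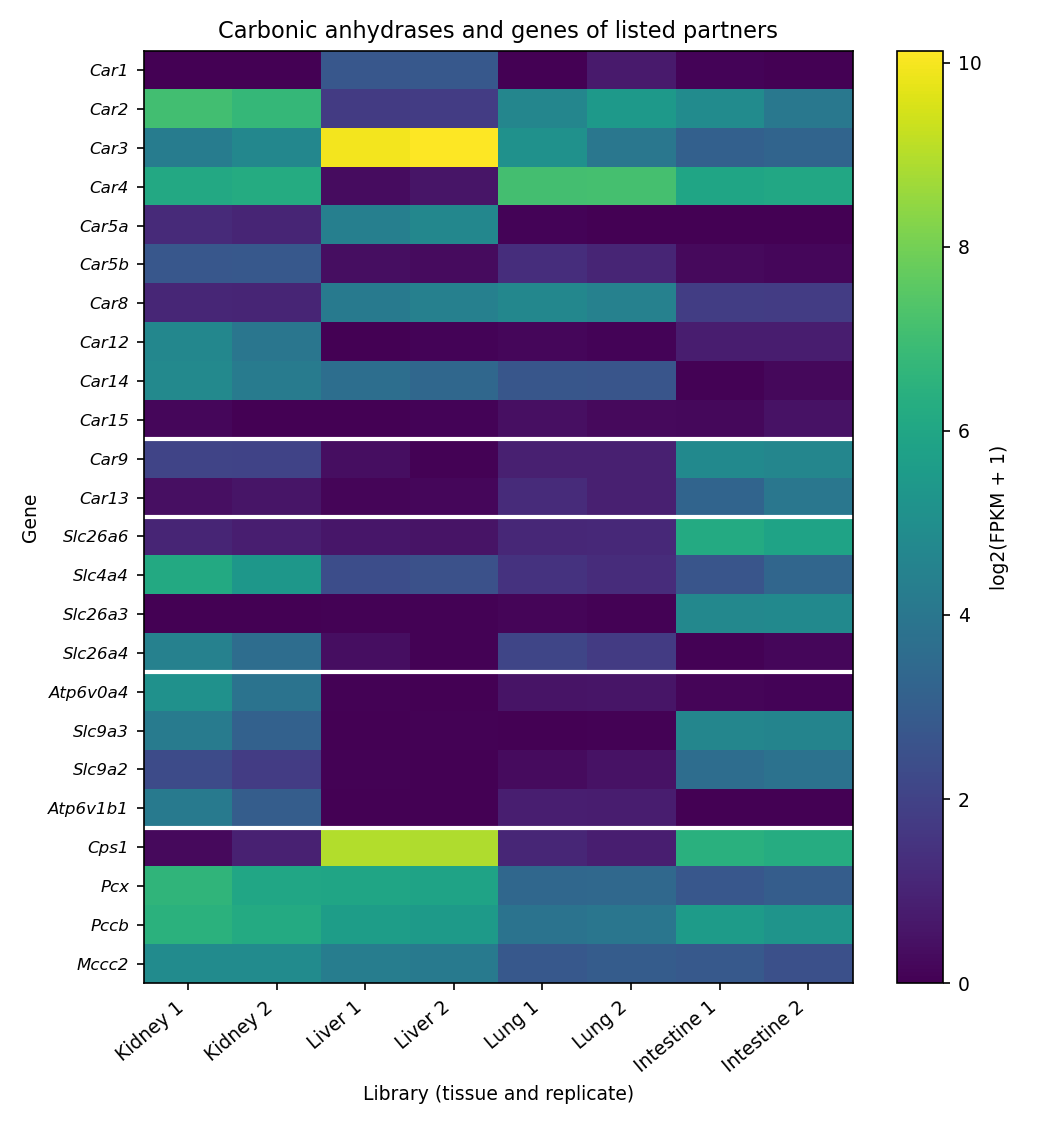
Log2(FPKM + 1) (color) in the 8 libraries (columns) of the 10 members (top block), the other 2 tested carbonic anhydrases, and the 4 most abundant genes of the transporter, proton and carboxylase lists (blocks split by white lines). Car5a and Cps1 are brightest in liver, and Slc26a6, Slc26a3, Car9 and Car13 in small intestine.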

How the data were processed

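RNA of 4 mouse organs was selected by poly(A) and sequenced, with 2 libraries per organ. The authors selected reads by sample index with bbduk, mapped them with STAR 2.5.3a under default parameters to the mouse genome of Ensembl release 75 (GRCm38), and deposited FPKM values from DESeq2's fpkm function. The program that counted reads on genes, and its use of strand, are not given in the sources used here. Libraries were grouped by the organ in the labels, and each column was assigned to a sample by its name.

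Symbols were matched to GENCODE M21, and 51847 (99.3%) had a single match. The steps of the low values (up to 50 reads) gave whole reads within 0.02 for 94.6% to 96.1% of them per library, from which the depths and read numbers were taken. FPKM values were transformed to log2(FPKM + 1), and those that reached an FPKM of 1 in 2 or more libraries entered limma 3.58.1 (lmFit, eBayes with a trend) in R 4.3.3, all 8 libraries in one fit, with Benjamini-Hochberg adjustment over all 16328 genes of each comparison. The step was tested on simulated data. Other values were computed in Python 3.11.15 with pandas 2.3.3 and numpy 2.4.6, and drawn with matplotlib 3.10.9.

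The members and all lists were chosen with earlier results of these data known. Named are the members, the 6 other carbonic anhydrases, the 4 genes of each further list with the highest mean FPKM in any organ, the 3 genes most alike to each tested member, genes counted among 5 or fewer calls, overlapping genes, and markers that moved with a result. A few results of these lists are not reported here. The genes named in such counts and for overlap were chosen after their values were seen. Lists held as cell markers were principal and intercalated cells, distal convoluted tubule, proximal tubule, thick ascending limb, lung capillary endothelium, erythroid cells, adipocytes, skeletal and cardiac muscle, pancreatic acinar cells and adrenal cortex. Of these, the cardiac muscle markers summed to an FPKM of 206 and 211 in lung and to at most 8.46 elsewhere. Lung was also the organ with the highest Car4 and Car8 as deposited, and the part of cardiac muscle in their lung values was not tested. The adrenal cortex markers summed to at most 2.07 in any library. The 2 thick ascending limb markers summed to 892 and 610 in kidney and the 2 distal convoluted tubule markers to 91.6 and 25.8. Alternatives changed the pseudocount, the filter, the scaling, the trend, a replicate block, limma-voom on the recovered reads, the genes in the summed FPKM, and each library left out.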

Additional observations from a re-analysis of the deposited data

How the results depend on the processing

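With 2 libraries per organ, the spread is estimated mainly across organs and genes, and a library left alone in its organ is assumed to vary like the others. Of the 28 called differences between an organ and the rest, 377 of 382 values over 14 alternatives kept direction and call, 5 lost the call and 0 reversed. Of 27 neighbouring pairs, 341 of 366 values did, 15 lost the call, 2 gained it and 8 reversed. Car1 without a liver library and Car12 without a kidney library did not pass the filter. These settings are left out of both tallies and not counted as lost calls. The other values of Car1 and Car12 are part of the tallies, though these genes had to differ between organs to pass the filter. The number of pairs that passed was 18, and 16 to 18 with every library kept, 15 to 18 with 1 left out. Median-of-ratios scaling reversed Car2 between lung and small intestine (-0.18), Car3 between lung and kidney (-0.96), Car4 between lung and kidney (-0.16), Car8 between lung and liver (-1.27) and Car12 between lung and liver (-0.027). Car3 between lung and kidney also reversed without kidney replicate 1 (-0.14) or lung replicate 1 (-0.47), with a range of -0.47 to 0.65 over the libraries left out, and Car1 between lung and small intestine without lung replicate 2, with a range of -0.059 to 0.66. The cause was not tested.

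Members called higher in liver were 5, and 3 to 5 with 1 library left out, with 3 without liver replicate 1, where Car1 no longer passed the filter; Car12 did not pass it without a kidney library. The counts over all genes tested moved as follows. With a pseudocount of 0.1, 4361 genes were lower in kidney, 8560 in liver and 2991 in small intestine, against 2625, 5334 and 1843. With limma-voom 4159 were lower in kidney. With median-of-ratios scaling 2073 were higher and 2275 lower in liver, and 2345 higher and 2618 lower in lung. Genes of the listed partners and of the 6 other carbonic anhydrases were counted together. With a pseudocount of 0.1, 9 of them were called lower in kidney and 13 in small intestine. In the main fit these were 5 in kidney, with Car13 among them at -1.13, and 8 in small intestine. Those called higher were 10 in lung with that pseudocount (5 in the main fit). With median-of-ratios scaling 7 were higher in liver (2 in the main fit) and 2 in lung. With 1 library left out, they were 3 to 5 higher in lung and 4 to 9 lower in small intestine. With the 6 other carbonic anhydrases in the sum, Car3 was 94.5% of it in liver and Car4 46.7% in small intestine.

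The same replicate numbers do not pair the libraries: over the 6 pairs of organs, the correlation of deviations lay between -0.22 and 0.05, above 0 in 2 and above 0.1 in 0. With the replicate number as a block, 18 neighbouring pairs passed, and the members called were 5 higher and 3 lower in kidney, 5 and 4 in liver, 2 and 3 in lung, and 1 and 5 in small intestine, as without it. Groups of 2 libraries are too small to test for a library that stands apart.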
